A study of Mus musculus with 3 samples.

Results

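The 4 genes described here, Sdha, Sdhb, Sdhc and Sdhd, encode the subunits of succinate dehydrogenase, which is complex II of the mitochondrial respiratory chain. They were chosen by name, and an ESRRA peak was assigned to a gene where the midpoint of the peak lay within 30 kb of an annotated start site of that gene. Of the 1639 ESRRA peaks in the list, 2 met this rule, with 1 at Sdha and 1 at Sdhd, while Sdhb and Sdhc had none and are kept as genes without a peak. ChIP-seq sequences the DNA that is pulled down with an antibody, here against ESRRA, in cells of duodenal villi, the finger-like projections of the intestinal lining, from C57BL/6 mice that were wild type and on regular chow. There were 2 ESRRA ChIP libraries and 1 library of input chromatin, all from this tissue and genotype, and the peaks were called after both ChIP libraries had been merged. The list therefore carries no replicate error, no peak height and no read depth, and the age and number of the animals behind the libraries are not given in the sources used here. A ChIP from Esrra knockout tissue was not analysed here, nor was gene expression, so that the values below are positions of peaks and bases of sequence, and not effects on a gene.

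Succinate dehydrogenase belongs both to the tricarboxylic acid (TCA) cycle and to the respiratory chain, since it oxidizes succinate to fumarate and hands the electrons to ubiquinone in the inner mitochondrial membrane. SDHA carries the flavin at which succinate is oxidized, SDHB carries the iron-sulfur clusters along which the electrons travel, and SDHC and SDHD are the membrane anchors that hold a heme and the ubiquinone site. All of its subunits are encoded in the nucleus, unlike those of the other complexes that pass electrons along the chain. ESRRA, the estrogen-related receptor alpha, is an orphan nuclear receptor known for its control of genes of mitochondrial energy metabolism together with PGC-1 coactivators. It binds an extended half-site written as TCAAGGTCA, here called the ESRR sequence, whose 7-base core is AAGGTCA. Every TCAAGGTCA is thus also counted as an AAGGTCA, and every AAGGTCA as the shorter half-site AGGTCA, on either strand.

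The sequences on which the comparison of the 4 genes turns are given first, each read 5′ to 3′ from the mm9 genome. Capitals mark the ESRR sequence where all 9 bases were present, and otherwise the 7-base core. The first pair lies inside the peaks, and the second pair is the core nearest to the start site of each gene without a peak.
Sdha, in its peak (chr13:74487452-74487512, minus strand): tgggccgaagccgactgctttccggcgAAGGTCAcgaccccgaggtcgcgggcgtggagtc
Sdhd, in its peak (chr9:50411900-50411928, plus strand): tttcgagggcTCAAGGTCActctacaacc
Sdhb, no peak (chr4:140517618-140517678, plus strand): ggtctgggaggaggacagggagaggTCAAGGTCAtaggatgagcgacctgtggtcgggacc
Sdhc, no peak (chr1:173080203-173080263, minus strand): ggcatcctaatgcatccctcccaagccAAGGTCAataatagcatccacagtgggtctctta

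Both peaks lay at the promoter of their gene. Within 1 kb of a start site a peak was found for 2 of the 4 subunit genes, and likewise for 2 of 4 within 30 kb. Of all 22367 annotated protein-coding genes, 2.08% had a peak within 1 kb and 8.75% within 30 kb. With 4 genes, the 50.0% share within 30 kb has a 95% Wilson interval from 15.0 to 85.0%, which covers counting error over genes and not error between animals. No member lay near the limit of 30 kb: the farther of the genes with a peak was 142 bp from it and the nearer of those without was 583.9 kb from one.

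**Figure D1:**
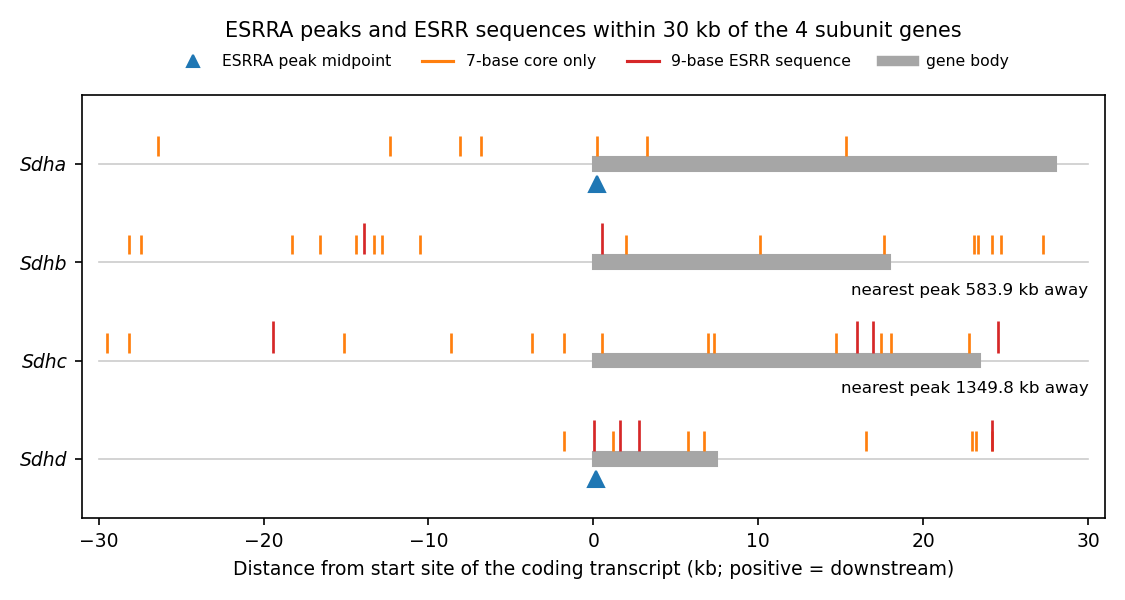
Each row is a gene, drawn in its own direction from 30 kb before to 30 kb after the start site of its most upstream coding transcript, with distance in kb on the horizontal axis. Triangles are ESRRA peak midpoints, short orange lines the 7-base core and taller red lines the full 9-base ESRR sequence, and grey bars the gene bodies; Sdha and Sdhd have a peak at the start site, and Sdhb and Sdhc have ESRR sequences without a peak.

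Sdha, the catalytic subunit, spans 74459702 to 74487728 on the minus strand of chromosome 13. Its peak ran from 74487217 to 74487817, with the midpoint 211 bp downstream of the start site of the coding transcript and 88 bp downstream of the nearest of 8 annotated start sites. Of the 601 bases of this peak, 63 were coding, 133 were untranslated exon of coding transcripts, 348 were exon of a noncoding Sdha transcript, 29 were intron and 28 lay between genes. Those 28 bases between genes separate Sdha from Ccdc127, a gene on the opposite strand whose first start site is 29 bp upstream of that of Sdha. The peak was therefore within 1 kb of the starts of both genes, although its midpoint was nearer to those of Sdha, at 88 bp against 240 bp for Ccdc127.

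The Sdha peak held the core AAGGTCA once, at 74487479 to 74487485, on the same strand as the gene. Its centre was 35 bp from the peak midpoint and 246 bp downstream of the start site of the coding transcript, in the first intron of that transcript and in an exon of a noncoding Sdha transcript. The core was preceded by the bases CG, and the best match to the ESRR sequence anywhere in this peak was 7 of 9 bases. The other 6 copies of AAGGTCA within 30 kb of the start site were outside the peak, and none of the 7 copies was the full ESRR sequence.

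Sdhd, a membrane anchor, spans 50404443 to 50411954 on the minus strand of chromosome 9. Its peak, from 50411512 to 50412112, was centred 142 bp inside the gene, counted from the single annotated start site. It covered 104 coding bases, 115 untranslated exon bases, 331 intron bases and 51 bases between genes. These 51 bases are the whole distance from Sdhd to Timm8b, a gene on the opposite strand that encodes a small chaperone for protein import into the mitochondrial intermembrane space. The Timm8b start site was 194 bp from the midpoint, so that this peak too was within 1 kb of a pair of divergent genes. The bases between both start sites are shown because the peak spans them, with a match to the ETS sequence CCGGAAG in capitals.
Between Sdhd and Timm8b (chr9:50411955-50412005, plus strand): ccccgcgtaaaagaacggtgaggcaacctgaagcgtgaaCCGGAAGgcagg

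The Sdhd peak held the full ESRR sequence, at 50411910 to 50411918 on the strand opposite to Sdhd, which is the strand of Timm8b. It lay in the untranslated part of the first exon of Sdhd, with its centre 40 bp downstream of the Sdhd start site and 102 bp from the peak midpoint. There were 12 copies of AAGGTCA within 30 kb of this start site, of which 4 were the full ESRR sequence, and 1 of the 12 was in the peak. Of the other full sequences, those in introns of Sdhd with a core centred 1622 and 2750 bp downstream of the start were in no peak, and neither was one at 24142 bp in an intron of Il18.

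**Figure D2:**
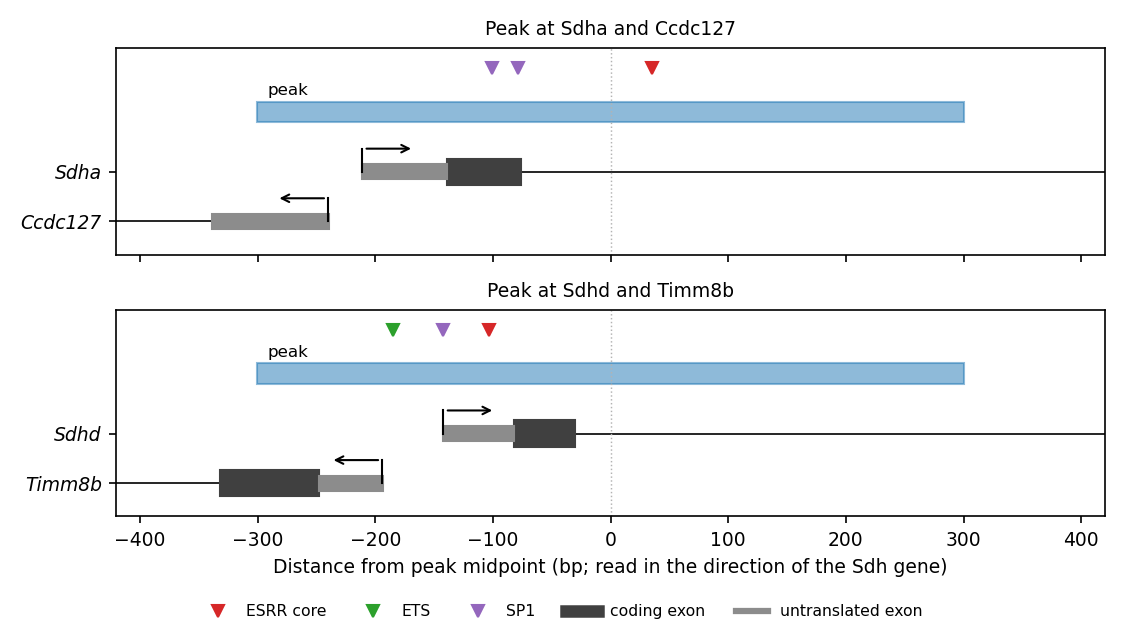
The peaks at Sdha (top) and Sdhd (bottom) with the divergent neighbour of each, as distance in bp from the peak midpoint in the direction of the Sdh gene. Blue bars are the peaks of 601 bp, dark and grey boxes the coding and untranslated exons of the most upstream coding transcript, arrows the start sites and triangles the sequence matches; the ESRR core lies 35 bp past the midpoint at Sdha and 103 bp before it at Sdhd.

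The peaks at Sdha and Sdhd thus shared their place over a divergent promoter, a midpoint inside the Sdh gene, and a single copy of the core. They differed in the bases before the core, in its strand relative to the gene, and in its distance from the midpoint. Over all peaks, 44.0% held AAGGTCA and 14.3% held TCAAGGTCA, against 7.81% and 0.742% of the windows of 601 bases centred on the start sites of protein-coding genes. Among the 443 peaks within 1 kb of the start of a protein-coding gene, as both of these are, 51.9% held AAGGTCA and 17.6% held TCAAGGTCA. Of the same 443 peaks, 41, or 9.26%, were that close to starts of 2 or more such genes. Over all protein-coding genes, 10.6% had a start on the opposite strand within 1 kb, of which 3.03% had a peak within 1 kb, against 1.97% of the genes without such a neighbour. Both peaks consisted of sequence found at 1 place in the genome, since each of their 24-base words occurred once. Their GC content was 59.4% at Sdha and 57.2% at Sdhd. Neither had a close neighbour: the next peak was 228 kb away for Sdha and 627 kb away for Sdhd.

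Sdhb, the iron-sulfur subunit, spans 140517118 to 140535108 on the plus strand of chromosome 4. The nearest peak was 583.9 kb downstream of a start site, and start sites of 18 other protein-coding genes lay between. Of all protein-coding genes, 43.0% were at least as far from a peak, and the median distance was 448 kb, so that Sdhb was at a distance common in this list.

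Its surroundings were not short of ESRR sequences. Within 30 kb of the start site there were 18 copies of AAGGTCA, where the median over all protein-coding genes was 12 (quartiles 10 and 15), and 2 of the 18 were the full ESRR sequence. The nearer of these was the one printed above, in the first intron of Sdhb on the strand of the gene, with its core at 140517645 to 140517651 and centred 530 bp downstream of the start site. It was thus nearer to the start of its gene than either of the full sequences in the Sdhd introns, which were likewise in no peak. All 24-base words of the 601 bases around this site occurred once in the genome, so that it was not repeated sequence. Of the 939 protein-coding genes with a full ESRR sequence within 1 kb of the start, 84 had a peak within 1 kb, or 8.95% (95% Wilson interval 7.28 to 10.9%), and Sdhb was among those without one. The window of 601 bases centred on the Sdhb start held no AAGGTCA, but the shorter half-site AGGTCA at 140517100 to 140517105, centred 15 bp upstream of the start, which 26.6% of such windows hold.
Sdhb half-site (chr4:140517088-140517117, plus strand): ctcagactccagAGGTCAccttaggaacat

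Sdhc, the other membrane anchor, spans 173057296 to 173080734 on the minus strand of chromosome 1. Its nearest peak was 1349.8 kb upstream of the start site, with start sites of 51 other protein-coding genes between, and 22.5% of all protein-coding genes were at least as far from a peak.

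There were 17 copies of AAGGTCA within 30 kb of the Sdhc start, of which 4 were the full ESRR sequence. The nearest full sequence had its core centred 15961 bp downstream, in an intron, and the nearest core was the one printed above, 501 bp downstream of the start in the first intron and preceded by CC. The window of 601 bases at the start held the half-site AGGTCA, centred 234 bp downstream of the start, but no AAGGTCA. In that window 97.8% of the 24-base words occurred once and none more than 3 times.
Sdhc half-site (chr1:173080485-173080514, minus strand): ggaagggcttagAGGTCAcactgtgtgtgg

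**Figure D3:**
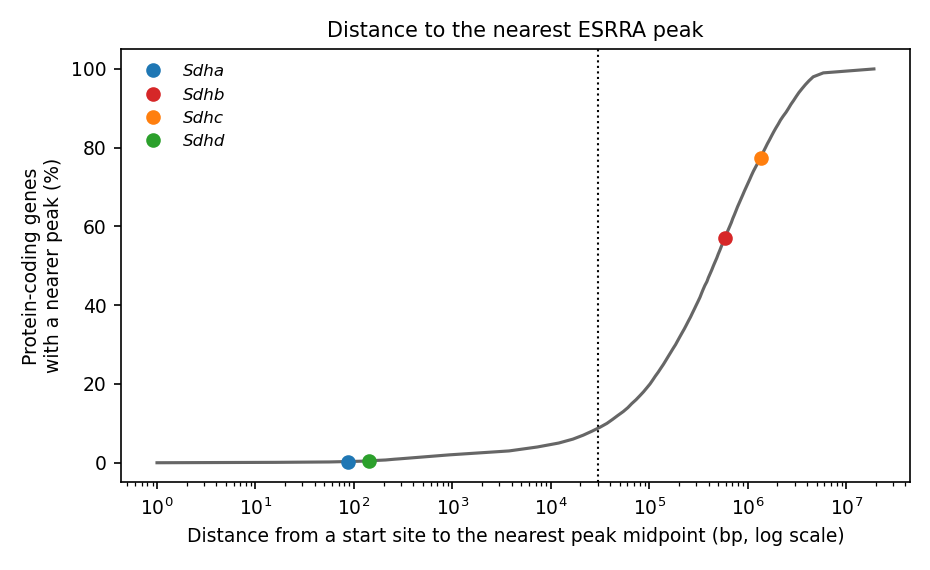
Distance in bp from a start site to the nearest ESRRA peak midpoint (horizontal, log scale) against the percentage of the 22367 protein-coding genes with a nearer peak (vertical); the grey line is all genes (a distance of 0 is drawn at 1 bp), the dotted line is 30 kb and coloured points are the 4 subunit genes. Sdha and Sdhd are among the genes nearest to a peak, and Sdhb and Sdhc lie on either side of 60% of the genes.

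The start windows of Sdha and Sdhd were somewhat richer in G, C and CpG than those of Sdhb and Sdhc, a difference that was not tested. Their GC content was 62.9% for Sdha, 60.2% for Sdhb, 56.7% for Sdhc and 61.2% for Sdhd, where the median was 60.4% for genes with a peak within 1 kb and 56.7% for those without. The ratio of observed to expected CpG, which is high in the CpG-rich promoters typical of genes used in most cells, was 0.86 for Sdha, 0.70 for Sdhb, 0.76 for Sdhc and 0.85 for Sdhd. The corresponding medians were 0.76 with and 0.58 without a peak. The core AAGGTCA was found in this window at both genes with a peak and at neither of the others. At Sdha and Sdhd these are the same copies as those in the peaks, which overlap the windows. Over all protein-coding genes the same window held AAGGTCA in 1746, of which 102 had a peak within 1 kb (5.84%), and lacked it in 20621, of which 363 had one (1.76%). The contrast between the 4 genes depends on the width of the window. At Sdhb and Sdhc the nearest copies, 530 and 501 bp downstream of the start, lay outside it but within 1 kb. Of all protein-coding genes, 29.4% had AAGGTCA within 1 kb of the start, and 4.24% of these had a peak within 1 kb.

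Across the 4 genes, 54 copies of AAGGTCA lay within 30 kb of the start sites and 2 of them were in a peak, namely the copy at Sdha and the copy at Sdhd nearest to the start. In each of these genes the copy in the peak was the one closest to the coding start, at 246 and 39 bp. The place of the peaks fixed this outcome, since they were 601 bp wide and centred 211 and 142 bp downstream of that start. The next copies, 3236 bp downstream at Sdha and 1209 bp at Sdhd, lay outside them. The closest copies at Sdhb and Sdhc were at 530 and 501 bp. No copy there could be in a peak, since neither gene had a peak within 30 kb. Over the whole genome, 0.204% of AAGGTCA copies and 0.558% of TCAAGGTCA copies were in peaks, so that a copy without a peak is the usual case.

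Other genes of the pathway were counted by the same rule. All 4 assembly factors of complex II, which insert the flavin and iron-sulfur clusters or guard the unassembled subunits, had no peak within 30 kb: the nearest peak was 138 kb away for Sdhaf1, 540 kb for Sdhaf2, 770 kb for Sdhaf3 and 882 kb for Sdhaf4. Of the subunits of the other respiratory complexes, 16 of 36 for complex I, 7 of 9 for complex III, 12 of 16 for complex IV and 12 of 15 for complex V had a peak within 30 kb, beside the 2 of 4 of complex II and the 8.75% of all protein-coding genes. Examples with a peak midpoint at most 100 bp from a start site were Ndufc1, Ndufs7, Uqcrc2, Cox7a1 and Atp5g3. Whether complex II differed from these lists was not tested. Its interval of 15.0 to 85.0% overlaps those of all 4, which together reach from 29.5 to 93.7%. Overlap of such intervals is not a test of a difference, and the genes of complex II were chosen by name and are not a random sample.

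Where the other complexes had a peak within 1 kb, its position and sequence can be set beside those at Sdha and Sdhd. Of these 42 genes, 34 had the peak midpoint at or downstream of the nearest start site. Over all 42 the median distance was 160 bp in either direction. The same values for all genes with a peak within 1 kb are not given here. Whether this position is particular to genes of the respiratory chain was not tested. Of the 42 peaks of the other complexes, 29 held AAGGTCA and 6 held TCAAGGTCA, beside the 51.9% and 17.6% of all 443 peaks near starts. In those 29 peaks the closest core was a median of 55 bp from the midpoint (quartiles 22 and 97), which places the 35 bp of Sdha inside the quartiles and the 103 bp of Sdhd just beyond the third.

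**Figure D4:**
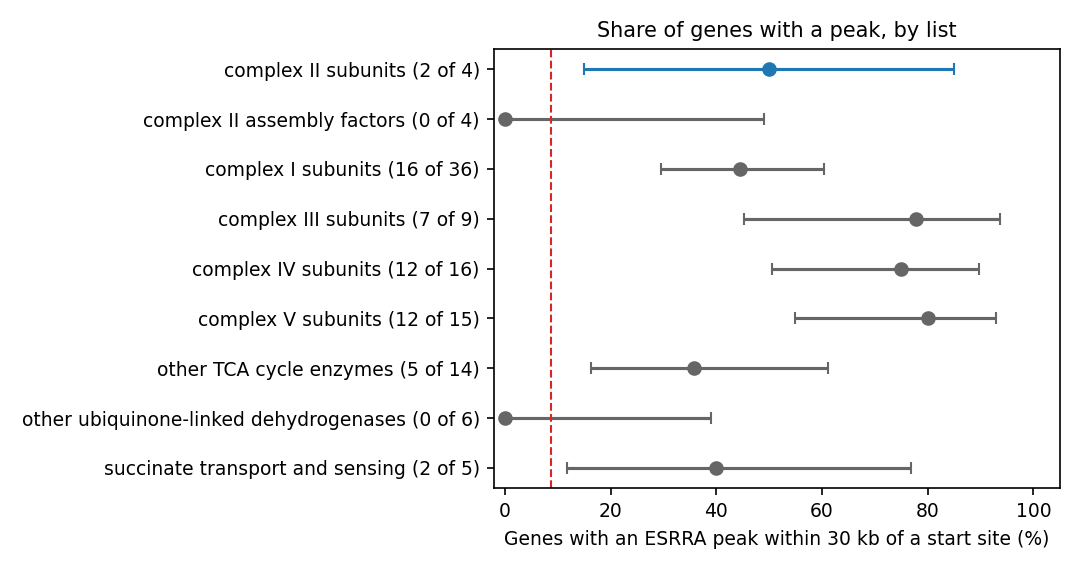
Percentage of genes with an ESRRA peak within 30 kb of a start site (horizontal) for each list of genes, with the number of genes in brackets. Points are shares, bars 95% Wilson intervals for counting error over genes, and the dashed line is the 8.75% of all protein-coding genes; complex II subunits, in blue, are at 50.0%, and the assembly factors and the other ubiquinone-linked dehydrogenases at 0.

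In the TCA cycle, of which succinate dehydrogenase is a step, 5 of the other 14 genes had a peak within 30 kb, and all 5 were within 1 kb. Of all protein-coding genes, 8.75% had a peak within 30 kb and 2.08% within 1 kb. Among the 5 TCA cycle genes with a peak were Cs (peak 435 bp upstream of a start site), which makes citrate, Idh3a (383 bp downstream), a subunit of isocitrate dehydrogenase, and Ogdh (137 bp downstream) and Dld (142 bp downstream) of the 2-oxoglutarate dehydrogenase complex. The genes for the steps on either side of succinate dehydrogenase were Suclg1, Suclg2 and Sucla2, whose products make succinate, and Fh1, whose product takes up fumarate, and none of these 4 had a peak within 30 kb. They are named here after their values were seen, since they had no peak.

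None of 6 other dehydrogenases that pass electrons to ubiquinone, as complex II does, had a peak within 30 kb. This list held Etfdh, which serves fatty acid oxidation, and Dhodh, Gpd2, Sqrdl, Prodh and Chdh, named here after their values were seen, with distances from 107 kb at Sqrdl to 1880 kb at Gpd2. Among 5 genes of succinate transport and sensing, 2 had a peak within 30 kb but none within 1 kb. The shares of all protein-coding genes were 8.75% within 30 kb and 2.08% within 1 kb. The genes with a peak were Slc25a10, the mitochondrial dicarboxylate carrier, with a peak 6951 bp upstream, and Slc13a2, a dicarboxylate transporter of the plasma membrane, with a peak 12011 bp upstream. The succinate receptor gene Sucnr1 was 1000 kb from a peak.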

How the data were processed

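ESRRA ChIP-seq was carried out by the authors on 2 libraries of wild-type duodenal villus cells, with 1 input library, all grouped by their titles. Cells were cross-linked with disuccinimidyl glutarate and then formaldehyde, which can also retain a factor held to DNA through another protein. Per the labels and the methods of the study, reads were aligned to mm9 with Bowtie2 (v2.2.6) and both ChIP libraries were merged with SAMtools (v0.1.19). Peaks were called with MACS2 at a p-value of 1e-05. The deposited list holds chromosome, start and end, with 1 width of 601 bp throughout and no score, so that replicates could not be compared. The study gives a range of sequencing depth for its ChIP libraries, but the list holds no read count per library or per peak. How the width was set and whether input or a filter entered the calls is not given in the sources used here.

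Positions were compared with GENCODE M1 and the NCBI build 37 (mm9) sequence, and coordinates are counted from 1. Sequence motifs had to match in every base, on either strand. The start window of a gene is 601 bases around the start of its most upstream coding transcript. Copy number was counted for 24-base words on both strands of the genome; peaks with a median above 10 copies were called multi-copy (324 of 1639). Wilson intervals used the 95% level. Functions were tested on simulated sequences and positions. Python 3.11.15, numpy 2.4.6, scipy 1.17.1 and pysam 0.24.0 were used.

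Members and gene lists were chosen by name with earlier results of these data known. Genes named were the members, the coding genes nearest to their peaks, the assembly factors, and at most the 5 nearest to a peak in each list with a peak within 30 kb. Outside this rule, Ccdc127, Timm8b, Il18, Suclg1, Suclg2, Sucla2, Fh1, Sucnr1 and the 6 other ubiquinone-linked dehydrogenases were named after their values were seen. Sdhaf3 and Sdhaf4 were matched as Acn9 and 1110058L19Rik. No comparison was tested: 4 genes and 1 merged list hold no replicates. Other promoter motifs, and the counts of divergent genes and of motifs within 1 kb, were added after the data were seen. Some results on neighbouring and listed genes are not reported here.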

Additional observations from a re-analysis of the deposited data

How the results depend on the processing

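The number of subunit genes with a peak stayed at 2 in all 9 alternatives run, which were limits of 1, 5, 10, 50 and 100 kb, the nearest peak edge, coding transcripts only, single-copy peaks only, and assignment of a peak to the nearest gene. Measured to the nearest edge, the distance was 0 for Sdha and for Sdhd, 583597 bp for Sdhb and -1349538 bp (upstream) for Sdhc. With coding transcripts only it was 211 bp for Sdha and 584097 bp for Sdhb. TCAAGGTCA was in 1 of the 2 peaks, but AAGGTCA and the half-site AGGTCA were each in 2, and the central part of the peaks alone held TCAAGGTCA in 0. Of the other lists, that of succinate transport and sensing changed, from 2 genes to 1 at 10 kb and to 0 at 1 kb. The other 41 of 52 values kept their value or, for counts of genes, stayed within 1.5 times of it. Distances were counted as changed even where, as at Sdhb and Sdhc, the difference was small beside the distance.

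Leaving out each ChIP replicate and a stricter p-value were not run, since they need peaks per library or a score per peak. No paired analysis was possible because peaks were called on merged reads. Without read counts or heights per peak, a gene without a peak in this list cannot be told from a gene with binding below the threshold.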

Other observations

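Sequences of other promoter factors were also matched in the start windows of 601 bases, and were chosen after the peaks were known. The SP1 sequence GGGCGG, which 55.2% of start windows hold, was present at all 4 subunit genes, 3 times at Sdha and at Sdhb, 2 times at Sdhc and 1 time at Sdhd. The ETS sequence CCGGAAG, found in 15.7% of start windows, was present at Sdhb and at Sdhd, so at 1 gene with a peak and 1 without. The CREB sequence TGACGTCA, found in 2.79% of start windows, was present at Sdhb. Neither the NRF1 sequence GCGCATGCG nor the YY1 sequence AAGATGGCG nor the HNF4 sequence CAAAGTCCA was found in any of the 4 windows. These matches are descriptions of sequence, and binding of these factors was not measured here.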
